A study of Mus musculus with 6 samples.

Results

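This account covers 49 mouse genes that mark or direct the cell lineages of the blastocyst, taken by name: 19 epiblast and pluripotency genes, 18 genes of the trophectoderm and its Hippo signalling, and 12 primitive endoderm genes. All deposited differentially methylated regions whose associated gene name was one of the 49 were kept, in any cytosine context, and collapsed to distinct regions. This gave 15 regions at 12 genes, of 9707 regions in the whole list, while 37 genes had 0 regions. Methylation had been measured in 6 single mouse embryos of C57BL/6 background at embryonic day 4.5 by whole-genome bisulfite sequencing, which converts unmethylated cytosine so that it is read as thymine. In the depressed group, 3 embryos (replicates 1, 3 and 4) had received, as fertilised eggs, sperm small RNAs of stress-induced depressed males. In the normal group, 3 embryos (replicates 1, 2 and 4) had received those of normal males. Both groups were injected at 2 ng/µl, cultured at 37 °C and taken about 108 h later, and neither is an uninjected control.

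The deposited table gives the authors' mean methylation of each group per region and 0 columns per embryo. No level therefore has a spread or a replicate number of its own, the depth behind it is unknown, and no difference could be set against the variation from embryo to embryo. An unmethylated cytosine left unconverted also reads as methylated, and no conversion rate was at hand. The high CHG and CHH levels below could therefore not be checked for incomplete conversion. All values below are descriptions of regions the authors had already selected as different. "Lower" and "higher" give the sign of the depressed minus the normal mean. A whole embryo mixes all its lineages, so a group mean cannot be assigned to the cells in which a gene is active, and with DNA alone the embryos' stage label could not be checked against marker expression.

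By the late blastocyst stage 3 lineages have formed. The trophectoderm is the outer epithelium that builds the placenta, the epiblast forms the embryo proper, and the primitive endoderm covers the epiblast and forms yolk sac. Hippo signalling separates outer from inner cells: where it is inactive, YAP1 enters the nucleus, joins TEAD4 and turns on Cdx2. Mammalian DNA methylation sits mainly at CG, and the early embryo carries little of it compared with later tissues. Methylation at CHG and CHH, where H is any base but G, is scarce in most mammalian cells and is deposited mainly by the de novo methyltransferases.

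A region of any kind was listed for 12 of the 49 lineage genes (24.5%) and for 18.0% of protein-coding genes. No lineage gene carried a CG region. Of 49 members, 0 had one, while 2.58% of 21900 protein-coding genes did. The nearest CG region lay 6578 bp from the primitive endoderm factor gene Gata4, was listed with the neighbouring gene Neil2, and was at 3.36% in depressed-group and 63.0% in normal-group embryos. For the 49 genes the median distance to the nearest CG region was 1877793 bp. The whole list holds only 867 lower and 13 higher CG regions, and no such distance was taken for other genes. All 15 regions of the lineage genes were thus CHG (4) or CHH (11) regions. Those lower in the depressed group were at Sox2, Tfcp2l1, Krt8 and Krt18, and those higher at Klf2, Cdx2, Elf5, Tead4, Lats2, Dab2, Pdgfra and Col4a2. No member carried regions of both directions.

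**Figure D1:**
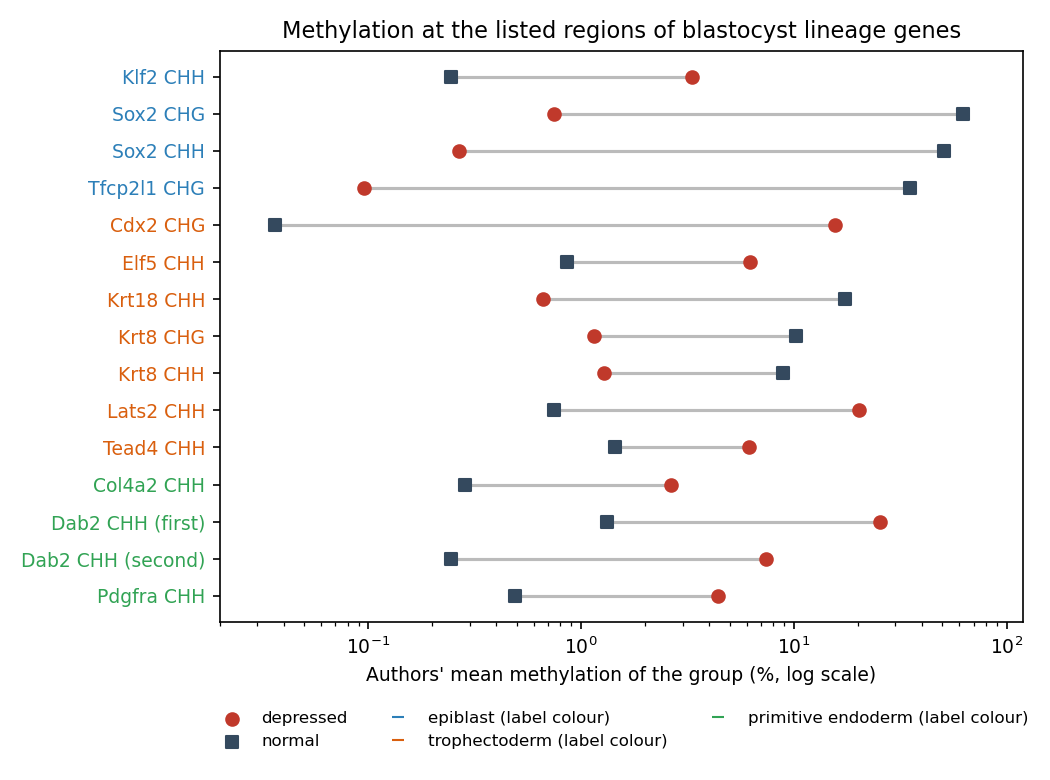
Authors' mean methylation (percent, log scale) in the depressed group (circles) and the normal group (squares) at each of the 15 regions, with gene names coloured by lineage. The 6 lower regions reach at most 1.28% in the depressed group, and the 9 higher regions at most 1.44% in the normal group.

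Krt18, Krt8 and Cdx2, all trophectoderm genes, were the 3 members with a region listed at the 5′ untranslated region, so the sequences before their transcript starts are shown here. The sequences are the 250 bases before the RefSeq transcript start (build GRCm38.p6), 5′ to 3′ in the direction of transcription, and capitals mark CG dinucleotides, the context in which none of them had a region. Krt18 is on the plus strand at chr15:102027966-102028215, Krt8 on the minus strand at chr15:102004343-102004592 and Cdx2 on the minus strand at chr5:147307250-147307499.
Krt18: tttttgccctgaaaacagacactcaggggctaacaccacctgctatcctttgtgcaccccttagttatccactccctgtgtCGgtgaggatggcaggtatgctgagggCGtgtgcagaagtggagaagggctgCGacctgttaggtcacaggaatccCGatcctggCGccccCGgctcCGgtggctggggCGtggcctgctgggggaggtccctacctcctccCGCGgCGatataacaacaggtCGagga
Krt8: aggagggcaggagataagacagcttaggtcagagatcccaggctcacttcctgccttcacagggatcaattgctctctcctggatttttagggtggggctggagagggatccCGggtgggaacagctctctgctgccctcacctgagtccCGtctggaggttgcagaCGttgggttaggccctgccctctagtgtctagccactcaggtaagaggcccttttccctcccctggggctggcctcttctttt
Cdx2: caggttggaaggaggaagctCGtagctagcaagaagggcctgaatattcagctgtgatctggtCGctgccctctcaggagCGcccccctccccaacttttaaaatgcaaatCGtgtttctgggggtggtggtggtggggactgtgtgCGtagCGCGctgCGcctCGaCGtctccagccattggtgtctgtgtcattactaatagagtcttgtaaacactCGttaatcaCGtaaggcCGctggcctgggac

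The last 40 bases shown for Krt18 lie inside its listed region and hold 4 of the 12 CG dinucleotides of the stretch. The stretches of Krt8 and Cdx2 lie outside their regions, which begin 45 and 167 bp after the start. Krt8 had 3 CG dinucleotides and Cdx2 had 13, where 32841 such RefSeq windows had a median of 6. At least 12 were found in 33.5% of windows and at most 3 in 37.8%. Krt18 and Cdx2, but not Krt8, have their region in an annotated CpG island.

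Among the epiblast and pluripotency genes, 3 of 19 (15.8%) carried a region. Sox2 encodes a transcription factor that acts with OCT4 in the inner cell mass and epiblast. It carried the largest difference of the members, in both non-CG contexts. Its CHG region (mm10, chromosome 3, 34651090 to 34651278, 17 cytosines) was at 0.749% in depressed-group and 62.3% in normal-group embryos. The CHH region (34651078 to 34651277, 45 cytosines) was at 0.266% in depressed-group embryos against 50.9% in normal-group embryos. These regions share 188 bp, so they are 1 locus seen in 2 contexts, 1083 to 1283 bp after the transcript start in an exon of the gene and in a CpG island. Overlap of this kind was common in the list, as 48.9% of all lower CHG regions overlapped a lower CHH region. By size of difference, Sox2 ranked 189 among 1715 lower CHG regions and 146 among 1415 lower CHH regions. By the authors' region statistic these ranks were 176 and 575. The non-coding gene Sox2ot spans the same sequence in RefSeq, and the table also lists the locus as an intron and a promoter of genes it gives no name, so the region cannot be assigned to Sox2 alone.

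Tfcp2l1, a transcription factor gene of the naive pluripotency network, had 1 lower CHG region in its 3′ untranslated region (chromosome 1, 118679319 to 118679411), with 7 cytosines, the fewest of the 15. Its level was 0.0949% in depressed-group and 35.1% in normal-group embryos, and the region overlaps a remnant of a LINE-1 repeat (L1M2). Klf2, another pluripotency factor gene, had a CHH region that was higher, listed as its promoter (chromosome 8, 72318334 to 72318551, 99 cytosines). It was at 3.32% in depressed-group embryos against 0.245% in normal-group embryos. The region ends 511 bp before the transcript start, on a CpG island shore, and is annotated with the repeat IMPB_01. That repeat was listed for 13.7% of all higher CHH regions. The 16 epiblast genes without a region include Pou5f1, which encodes OCT4, and Nanog, Klf4, Klf5, Esrrb, Prdm14, Lin28a, Sall4, Utf1 and Tdgf1. Genes for signals and for the later, primed state were also without one: Fgf4, Fgf5, Otx2, Nodal, Lefty1 and Bmp4. The closest listed region lay 31613 bp from Pou5f1 and 152444 bp from Nanog.

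Trophectoderm genes had a region in 6 of 18 cases (33.3%), 2 genes lower and 4 higher. Both lower genes encode keratins of simple epithelia. Krt8 and Krt18 proteins pair to form the intermediate filaments of the trophectoderm, and both genes had their region at the 5′ end. The share of all listed regions that lie at a 5′ end is not given here, so how common this placement is stays unknown. Krt18 (chromosome 15, 102028176 to 102028597, 81 cytosines) was at 0.662% CHH methylation in depressed-group and 17.4% in normal-group embryos, over a region from 40 bp before to 381 bp after the start. For Krt8 the CHG level (102003967 to 102004297, 32 cytosines) was 1.15% in depressed-group and 10.3% in normal-group embryos. The Krt8 CHH level (102003919 to 102004292, 55 cytosines) was 1.28% in depressed-group and 8.91% in normal-group embryos, and 326 bp of the CHG and CHH regions are shared. The starts of the 2 genes are 23874 bp apart and 0 regions were listed strictly between the genes. Krt19, a further simple-epithelium keratin gene from the list of other network genes, was also lower around its 5′ end, at 3.31% CHH methylation in depressed-group and 21.1% in normal-group embryos. Krt7, the other keratin gene of that list, had no region. Looked up after these values were seen, 7 of 49 protein-coding keratin genes with Krt symbols had regions (14.3%, against 18.0% of all protein-coding genes). Krt8, Krt18 and Krt19 were lower, while Krt2, Krt23, Krt73 and Krt78 were higher.

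**Figure D2:**
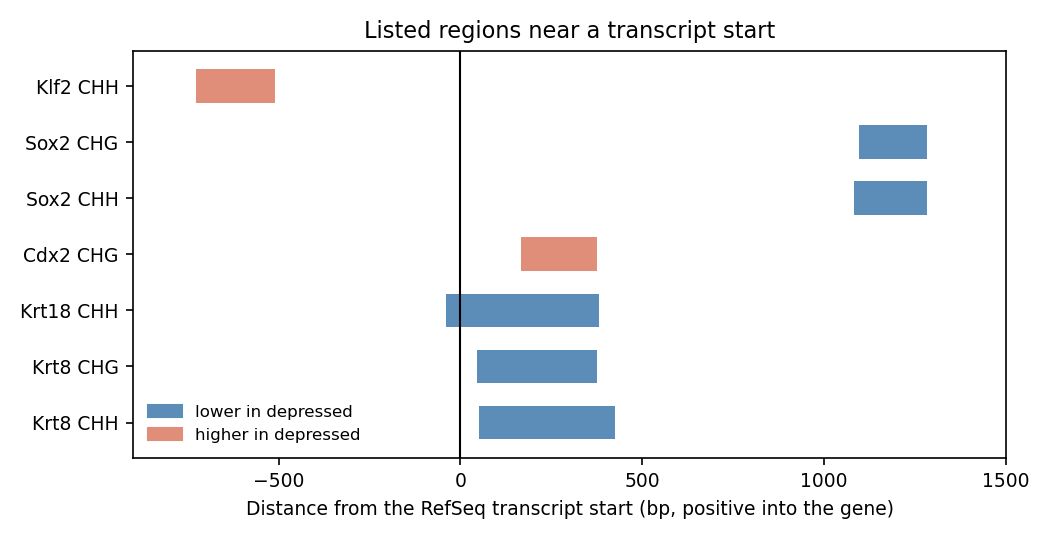
Position of the member regions within 1.5 kb of a RefSeq transcript start, in bp from the start and positive into the gene, coloured by direction in the depressed group. Krt18, Krt8 and Cdx2 have regions in the first 423 bp, lower at both keratin genes and higher at Cdx2.

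Cdx2, the homeobox gene that fixes trophectoderm identity, showed the opposite sign at a comparable place. Its CHG region in an exon and the 5′ untranslated region (chromosome 5, 147306875 to 147307082, 16 cytosines), 167 to 374 bp after the start and in a CpG island, was at 15.6% in the depressed group. In the normal group it was at 0.0364%, the lowest normal mean of all 169 higher CHG regions. A higher CHG region was listed for 0.758% of protein-coding genes, and Cdx2 was the only member with one. By the authors' region statistic it ranked 33 of these 169 regions, but by size of difference it ranked 124. Its level in the depressed group was below their median of 21.8%. Such regions lay in an exon or untranslated region in 86.4% of cases and in a CpG island in 23.1%.

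The other trophectoderm genes with a region were higher in CHH methylation, outside exons. Elf5, a trophoblast stem cell factor gene, was at 6.21% in depressed-group and 0.855% in normal-group embryos in an intron (chromosome 2, 103430658 to 103430816). Tead4, whose protein is the DNA-binding partner of YAP1, was at 6.14% in depressed-group and 1.44% in normal-group embryos in an intron (chromosome 6, 128229870 to 128230066), the smallest ratio of the 15 regions. The Tead4 region ranked 731 of 5528 higher CHH regions by the authors' region statistic. Lats2, a Hippo kinase gene, was at 20.1% in depressed-group and 0.745% in normal-group embryos (chromosome 14, 57760074 to 57760213). This region is listed as a promoter of Lats2, but lies 13862 bp outside the RefSeq gene. Hippo pathway genes thus had 2 of 6 with a region (33.3%), while Yap1, Lats1, Amot and Nf2 had 0. All 6 are among the longest of 3 equal length classes of genes, of which 35.4% had a region. The remaining trophectoderm genes without a region were Eomes, Tfap2a, Tfap2c, Gata2, Gata3, Ets2, Hand1 and Id2.

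Primitive endoderm genes had a region in 3 of 12 cases (25.0%), all 4 regions being higher CHH regions in introns. Of all CHH regions 79.6% were higher, and 56.7% of those higher ones touched an intron. Dab2, an endocytic adaptor gene of the lineage, had a pair. The stronger (chromosome 15, 6315471 to 6315571, 55 cytosines) was at 25.5% in depressed-group and 1.32% in normal-group embryos, and by difference it ranked 57 of 5528 higher CHH regions. By the authors' region statistic it ranked 1579. The weaker (6391729 to 6391866, 67 cytosines), on a B2 SINE repeat, was at 7.41% in depressed-group and 0.246% in normal-group embryos. Pdgfra, the receptor tyrosine kinase gene used to mark this lineage, was at 4.39% in depressed-group and 0.487% in normal-group embryos (chromosome 5, 75157362 to 75157608, 138 cytosines), in a stretch annotated with 3 repeats, RLTR31D_MM among them. The Pdgfra region ranked 714 of 5528 by the authors' region statistic. Col4a2, a basement membrane collagen gene, had the smallest difference of all 15 regions, 2.66% in depressed-group against 0.285% in normal-group embryos (chromosome 8, 11418551 to 11418755, 106 cytosines). The smallest difference anywhere in the list is 2.00 percentage points, so by difference Col4a2 lies just inside it. By the authors' region statistic Col4a2 ranked 1947 of 5528. Its neighbour Col4a1 had 0 regions, as had the factor genes Gata4, Gata6, Sox7, Sox17, Foxa2 and Hnf4a and the laminin genes Lama1 and Lamb1.

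**Figure D3:**
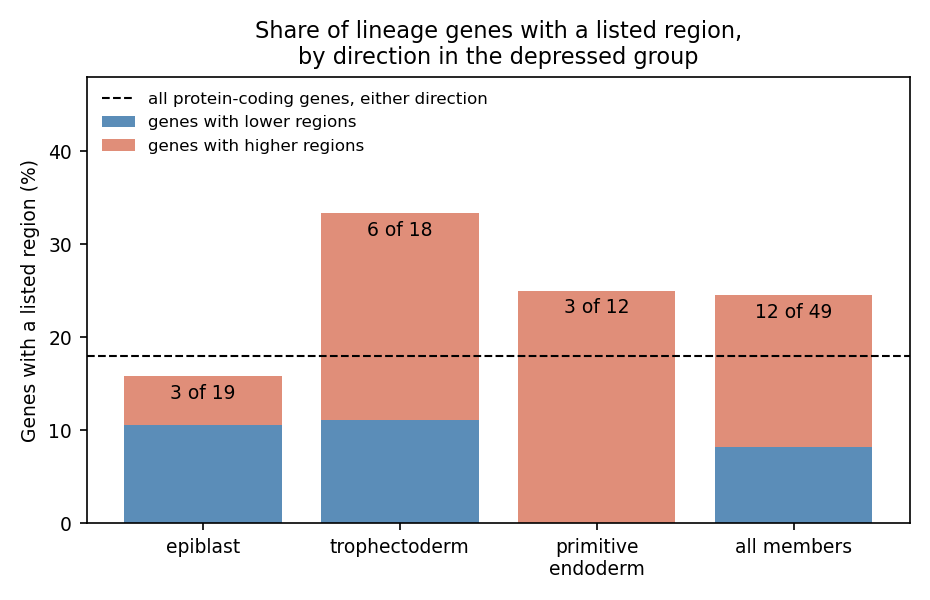
Percent of genes in each lineage list with a listed region, split by direction in the depressed group, with the share of all protein-coding genes (18.0%) as a dashed line. The counts were 3 of 19, 6 of 18 and 3 of 12 genes, and no lower region fell in the primitive endoderm list. Lower CHG regions were listed for 6.40% and lower CHH regions for 5.37% of all protein-coding genes.

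The lineages differ in gene length, and whether length bears on these shares was not tested. Median RefSeq gene length was 7145 bp for epiblast, 21540 bp for trophectoderm and 65298 bp for primitive endoderm genes. When all protein-coding genes were divided into 3 equal classes of length, a region was listed for 5.81% of the short, 12.7% of the intermediate and 35.4% of the long genes. In the same classes the members had 5 of 20, 0 of 11 and 7 of 18. The 5 short genes were Sox2, Klf2, Cdx2, Krt8 and Krt18, whose regions lie in or near the gene's first 1283 bp. Of the 7 long genes, Tfcp2l1 had its region in an exon and the other 6 had CHH regions in introns or, for Lats2, upstream. No test was made between lineages or against other genes, and with 3 to 6 genes per lineage the shares are a description.

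Taken by kind of region, the members' counts lay on both sides of the background. Lower CHG regions were found at 3 of 49 members (6.12%) and at 6.40% of protein-coding genes. Lower CHH regions were also at 3 of 49, against 5.37% of genes. Higher CHH regions were at 7 of 49 (14.3%), against 9.11%. Of the members' 11 CHH regions 8 were higher (72.7%), as were 79.6% of all CHH regions. Of their 4 CHG regions 3 were lower, as were 91.03% of all CHG regions.

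Among the members' CHH regions, as over the whole list, lower and higher ones differed in where they lay and in the cytosines counted per 100 bp. Their CHG regions, of which only 1 was higher, did not separate this way. All 3 lower CHH regions of the members touched an exon or untranslated region and 0 of the 8 higher ones did. All 4 CHG regions did so, the higher one of Cdx2 included. Cdx2 had 7.69 CHG cytosines per 100 bp, inside the range of 7.53 to 9.67 of the 3 lower CHG regions. Over all CHG regions the medians were 8.33 per 100 bp for lower and 10.5 for higher ones, so Cdx2 lay below both. In the whole list an exon or untranslated region was touched by 65.9% of lower and 2.23% of higher CHH regions, and by 83.1% of lower and 86.4% of higher CHG regions. The 3 lower CHH regions had 22.5 (Sox2), 19.2 (Krt18) and 14.7 (Krt8) CHH cytosines per 100 bp. The 8 higher ones had between 40.0 (Lats2) and 63.5 (Tead4) per 100 bp. These 2 sets of member regions did not overlap. Over all regions the medians were 21.2 per 100 bp for lower and 50.0 for higher CHH regions, but the spreads overlapped. From the 5th to the 95th percentile, lower regions ran from 3.76 to 54.9 and higher regions from 32.2 to 64.2. For scale, RefSeq promoter windows of 300 bases hold a median of 32.3 CHH cytosines per 100 bp counting both strands, and 95% of them hold at most 39.7. All 8 higher CHH regions of lineage genes exceeded that value and all 3 lower ones were under the 25.7 that marks the lowest 5% of windows. The medians of all higher and all lower CHH regions, 50.0 and 21.2, also passed these values, so this is not particular to lineage genes. The windows are promoter sequence, while most of the 8 higher regions lie in introns. The windows of Krt18 and Krt8 themselves hold 33.3 and 37.7 CHH cytosines per 100 bp, against 19.2 and 14.7 counted in their regions. Both windows lie mostly outside those regions. No source used here states how the authors counted cytosines or whether they left out poorly covered ones.

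**Figure D4:**
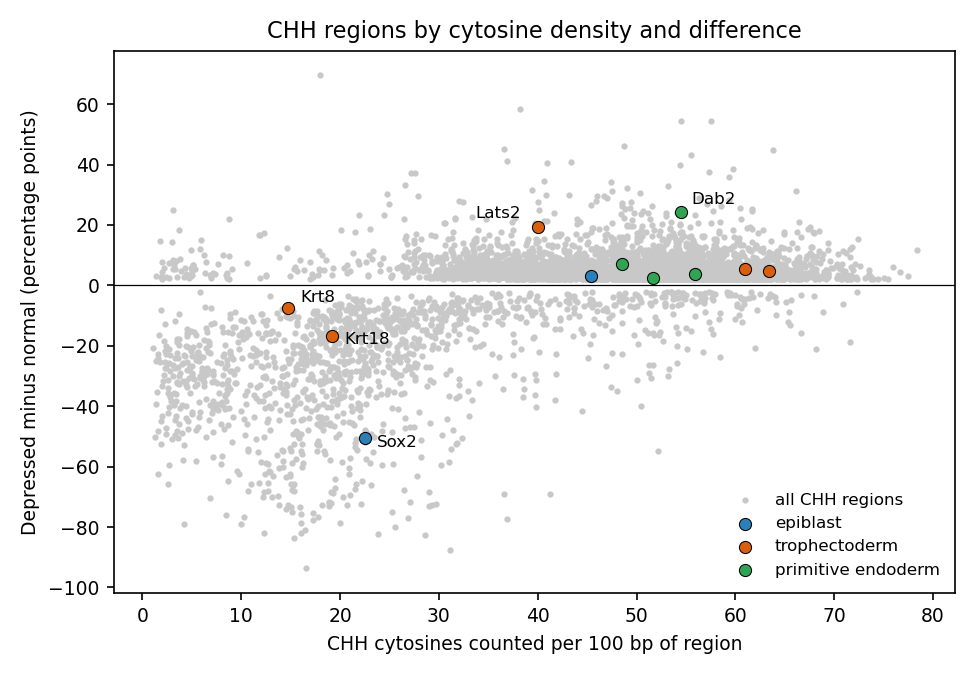
Each CHH region of the list (grey) by CHH cytosines per 100 bp and by difference in percentage points, depressed minus normal, with the 11 regions of lineage genes coloured by lineage. Lower members sit between 14.7 and 22.5 per 100 bp and higher members between 40.0 and 63.5.

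Further genes of the same networks, 20 for each lineage, were looked up in the same way. Of these 60 genes 11 (18.3%) had a region within 10 kb of the RefSeq gene, 6 with lower and 6 with higher regions, since Lamc1 had both. By listed name 12 of 60 had one, where 18.0% of all protein-coding genes did. None of the 60 had a CG region, a kind listed for 2.58% of protein-coding genes. Fgfr2, whose protein receives FGF4 signals, was listed with 20 regions that all lie farther away and is not counted. Of the 5 other trophectoderm genes with a region 4 were lower. Of the 6 trophectoderm members, counted by listed name, 2 were lower and 4 higher. A lower CHG region was listed for 6.40% and a lower CHH region for 5.37% of all protein-coding genes. Cdh1, which encodes the epithelial cadherin, was lower in both contexts at its 3′ end, at 0.562% CHH in depressed-group and 49.0% in normal-group embryos and 0.921% CHG in depressed-group and 53.7% in normal-group embryos. Cited2, a transcriptional co-regulator gene, was at 1.37% CHG methylation in depressed-group and 39.5% in normal-group embryos. Atp1b1, a sodium pump subunit gene, was at 0.189% in depressed-group and 20.1% in normal-group embryos. Stk3, a Hippo kinase gene, was higher in an intron, at 3.73% CHH in depressed-group and 0.886% in normal-group embryos.

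The epiblast genes of this second list had 3 of 20, and its primitive endoderm genes likewise 3 of 20. Lifr, the gene of the LIF receptor, was at 10.3% CHH methylation in depressed-group and 0.409% in normal-group embryos in an intron. Il6st encodes gp130, the partner of the LIF receptor, and was at 0.148% CHG in depressed-group and 11.2% in normal-group embryos in its 3′ untranslated region. Tcf7l1, a repressor gene of the pluripotency network, was at 5.64% CHH in depressed-group and 0.441% in normal-group embryos. Lamc1, which encodes the gamma chain that joins the laminin chains of Lama1 and Lamb1, was at 0.0280% CHG in an exon in depressed-group and 27.1% in normal-group embryos, and at 17.5% CHH in depressed-group and 0.813% in normal-group embryos in an intron. Lrp2, an endocytic receptor gene, had a pair of higher intronic regions.

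For the 37 members without a region, the nearest listed region of any context lay between 6578 bp (Gata4) and 827917 bp (Lama1) from the gene, with a median of 61053 bp. None of the 37 had any listed region inside its RefSeq span, under whatever gene name, and 2, Gata4 and Ets2, had one within 10 kb. No older symbol of any member occurred in the table. Since only regions that the authors selected are listed, a gene without one may be unchanged, unread or under their thresholds, which cannot be told apart here.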

How the data were processed

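Per the submitters' processing notes, the single-embryo bisulfite reads went through Trim Galore 0.3.3, Bismark and SAMtools with the build mm10. How regions were called and filtered, and how the embryos of a group were pooled, is stated in none of the sources used here. Per the file headers the deposited table gives each group's mean methylation as a fraction, their difference and a region statistic, which is a score by the authors. Fractions were multiplied to percent. Entries (18732) were collapsed to 9707 regions by chromosome, start, end and context, and the difference equalled depressed minus normal in all of them.

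All 49 members, and all 60 further genes, were found in RefSeq (GRCm38.p6), and 3981 of 4040 gene names matched. Promoter sequences came from RefSeq for 11 of the 12 genes with a region; Tead4 was not among them. Counts were made with Python 3.11.15 and pandas 2.3.3, and the interval steps were checked on simulated data. No test was run, since there are 0 values per embryo. Every member with a region is named with its values. Members and lists were chosen with earlier results of these data known. Alternatives covered the difference, the cytosine number, the statistic, the distance to the gene, merged contexts and the background.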

Additional observations from a re-analysis of the deposited data

How the results depend on the processing

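The level of each group is the authors' mean, so alternatives could change only which regions count. With a difference of at least 10 percentage points the members with a region fell to 6, against 12 as listed, and their regions to 7, against 15. Trophectoderm genes with a region then numbered 3 and primitive endoderm genes 1, because Col4a2, Elf5, Klf2, Krt8, Pdgfra and Tead4 were left out. All other counts of members, regions, lower regions and lineage genes stayed within 1.5 times of the listed count with at least 10 cytosines (Tfcp2l1 left out), a statistic of at least the context median (Lats2 and Tfcp2l1 left out), regions within 10 kb of the gene (Lats2 left out), regions overlapping the gene (Klf2 and Lats2 left out) and merged contexts. The share of all genes with a region depended on the background: 18.0% of protein-coding genes, 7.96% of all RefSeq genes, and 5.81, 12.7 and 35.4% of the short, intermediate and long protein-coding genes. The 60 further genes had 12 with a region by listed name, an alternative added after seeing the data, and 11 within 10 kb. No paired analysis was possible because the table holds no values per embryo, and for the same reason no embryo could be left out in turn. The unknown depth and conversion rate limit every level.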
